A study of Mus musculus with 6 samples.

Results

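The orphan nuclear receptors of mouse stem cells examined here are 9 genes: the oestrogen-related receptors Esrra, Esrrb and Esrrg, Nr0b1 (DAX1), Nr5a2 (LRH-1), Nr6a1 (GCNF), and the COUP-TF subfamily Nr2f1, Nr2f2 and Nr2f6. They were chosen by name as receptors with a known place in the stem cell network or in its shutdown, with earlier results of these data known. They were found on the array as every probe whose RefSeq transcript carries that symbol. This gave 12 probes of the 55681 non-control probes, which name 20972 genes in all. Esrrg, Nr5a2 and Nr2f1 had 2 probes each. Of the 9 genes, 7 passed the filter on dim probes and were tested among 14595 genes. Esrrg and Nr2f1 did not pass, and their values are given without a test.

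The study asked how well proteins of the POUV class from other vertebrates keep mouse embryonic stem cells going in the absence of the cells' own OCT4. Its cells were ZHBTc4, mouse embryonic stem cells whose remaining source of OCT4 is a transgene that tetracycline turns off. All 6 lines shared this background, a stably inserted pCAG-IP-POUV plasmid, tetracycline at 2 µg/mL, and puromycin at 1 µg/mL added from day 2, and they grew on gelatin in medium with serum and LIF. The plasmid made mouse OCT4 in clones 1 and 2 of the group mOct4. It made POU5F1 of the coelacanth, a lobe-finned fish, in clones 4 and 5 of the group LcPOU5F1, and the paralogous coelacanth POU5F3 in clones 1 and 2 of the group LcPOU5F3. Each line grew from 1 colony picked at day 9, so a group is 2 clones. The p-values measure the spread between such clones. A line without a rescuing protein was not analysed here.

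Levels are given as log2 of the processed Cy3 signal minus the array's 75th percentile, so a bright probe lies above 0, a dim one below it, and 1 unit is a doubling. The share of probes well above background ran from 43.5% to 57.8% over the 6 arrays and no spot was saturated. The probe of mouse Pou5f1 gave a signal well above background in the mOct4 clones and on none of the other 4 arrays. The other 11 of 12 embryonic stem cell markers were well above background on all 6 arrays, but their summed level with Pou5f1, relative to the 75th percentile, was 776 and 853 in mOct4, 774 and 798 in LcPOU5F1, and 430 and 296 in LcPOU5F3. Esrrb is part of that list. Markers of other cell types moved too. In LcPOU5F3 against mOct4, 8 trophectoderm markers were higher and 1 lower of 11 tested, beside 11.8% of all genes in each direction. Of mesoderm and mesenchyme markers 3 were higher of 5, and of primitive endoderm markers 2 were higher and 1 lower of 7. Lower were 4 neural markers of 7 and 3 primed epiblast markers of 5 (Foxd3, Otx2, which is also on the neural list, and Sox3). Krt7, Plac1 and Dab2 passed the filter on dim probes only through LcPOU5F3, and Sox3 only through mOct4. In LcPOU5F1 against mOct4, 0 of the 11 trophectoderm markers passed, with 9 at an unadjusted p under 0.05, beside 15.5% of all genes. The 9 went in both directions, and the median of the 11 was -1.22, beside 0.10 for all genes. In that comparison Cubn of the primitive endoderm list was at least 5.69-fold higher (limma adjusted p = 0.035), with no mOct4 array well above background. Cubn passed the filter only through LcPOU5F1, and without a filter no gene passed in that comparison. The summed level of 12 trophectoderm markers was 36.2 and 36.5 in mOct4, 32.6 and 23.8 in LcPOU5F1, and 529 and 548 in LcPOU5F3, with Elf5 well above background on no array. That of 10 mesoderm and mesenchyme markers was 2.98 and 2.61, 1.85 and 1.80, and 32.7 and 72.6 in the same order, with T, Mixl1, Mesp1 and Hand2 well above background on no array. That of 11 primitive endoderm markers was 13.8 and 12.3, 16.2 and 20.1, and 46.1 and 50.5, with Pdgfra and Afp well above background on no array. Such sums follow their brightest genes, as Tagln in the mesoderm list (4.7 and 5.8 in LcPOU5F3). Median log2 levels of the trophectoderm list were -0.3 and -0.6 in mOct4 and 2.7 and 2.8 in LcPOU5F3. Those of the mesoderm list were -3.2 and -3.6, then -2.9 and -3.8. Those of the primitive endoderm list were -3.5 and -3.9, then -3.0 and -3.2. The part of these cells in the results was not tested. In RNA from whole cultures, fewer cells of a type and less RNA per cell cannot be told apart.

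Nuclear receptors are transcription factors that bind DNA through a pair of zinc fingers and usually respond to a lipid ligand. Orphan receptors are those found before, or without, a known natural ligand. Many bind DNA as single molecules at a copy of the core motif AGGTCA with a few bases in front of it. In mouse embryonic stem cells ESRRB and NR5A2 act beside OCT4, SOX2 and NANOG as activators of the naive state, and NR0B1, which lacks the usual DNA-binding domain, acts mainly as a repressor and corepressor bound to other receptors. NR6A1 and the COUP-TFs sit on the opposite side. They rise or act as cells leave the pluripotent state and have been described as repressors of Pou5f1.

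Promoter sequence is shown for the 4 receptors called lower in LcPOU5F3 than in mOct4: Nr0b1, Nr5a2, Nr6a1 and Esrrb. The RefSeq promoter table for GRCm38.p6, which spans 250 bases before to 50 bases after each start site, holds 16 windows for the 9 genes. Capitals mark AGGTCA, or its reverse complement TGACCT where the match lies on the opposite strand. Each sequence is the 250 bases before the start site in the direction of the gene.
Nr0b1, chrX:86191525-86191774, plus strand: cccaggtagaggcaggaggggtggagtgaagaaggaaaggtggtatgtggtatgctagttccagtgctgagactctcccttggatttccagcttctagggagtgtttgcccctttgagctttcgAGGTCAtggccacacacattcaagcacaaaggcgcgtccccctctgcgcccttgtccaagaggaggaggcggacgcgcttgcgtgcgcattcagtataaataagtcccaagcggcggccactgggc
Nr5a2, chr1:136960449-136960698, minus strand: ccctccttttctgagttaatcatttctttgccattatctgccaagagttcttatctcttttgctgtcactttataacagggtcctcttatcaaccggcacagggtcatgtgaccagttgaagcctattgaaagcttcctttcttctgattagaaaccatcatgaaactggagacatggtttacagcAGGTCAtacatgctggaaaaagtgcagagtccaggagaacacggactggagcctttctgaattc
Nr6a1, chr2:38784516-38784765, minus strand: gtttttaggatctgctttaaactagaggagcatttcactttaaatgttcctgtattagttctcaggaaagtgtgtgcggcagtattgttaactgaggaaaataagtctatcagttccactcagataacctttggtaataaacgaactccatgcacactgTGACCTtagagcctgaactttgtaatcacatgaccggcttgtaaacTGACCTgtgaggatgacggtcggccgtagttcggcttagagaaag
Esrrb, chr12:86360867-86361116, plus strand: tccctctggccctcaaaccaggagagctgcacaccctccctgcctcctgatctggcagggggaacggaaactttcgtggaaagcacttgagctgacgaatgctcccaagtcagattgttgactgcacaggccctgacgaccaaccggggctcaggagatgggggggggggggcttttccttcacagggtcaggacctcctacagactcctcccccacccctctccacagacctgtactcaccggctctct
Nr0b1 has 1 window in the table, and each of the other 3 has 2, of which 1 is shown. For Nr5a2 and Nr6a1 the window with AGGTCA was chosen, and the other window of each holds no match. For Esrrb the first is shown, and neither holds a match. AGGTCA was searched on both strands and lies in 3 of the 16 windows, against 16.3% of the 32851 windows of all genes. The match of Nr0b1 lies at bases -126 to -121 from the start site, that of Nr5a2 at -64 to -59, and those of Nr6a1 at -91 to -86 and -45 to -40. The longer element TCAAGGTCA, which contains AGGTCA and is the form bound by the oestrogen-related receptors and NR5A2, was found in 0 of the 16 windows and in 0.423% of all windows. The octamer ATTTGCAT, bound by POU proteins, was found in 0 of the 16 and in 1.74% of all. These are matches of letters in a short window and nothing more.

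**Figure D1:**
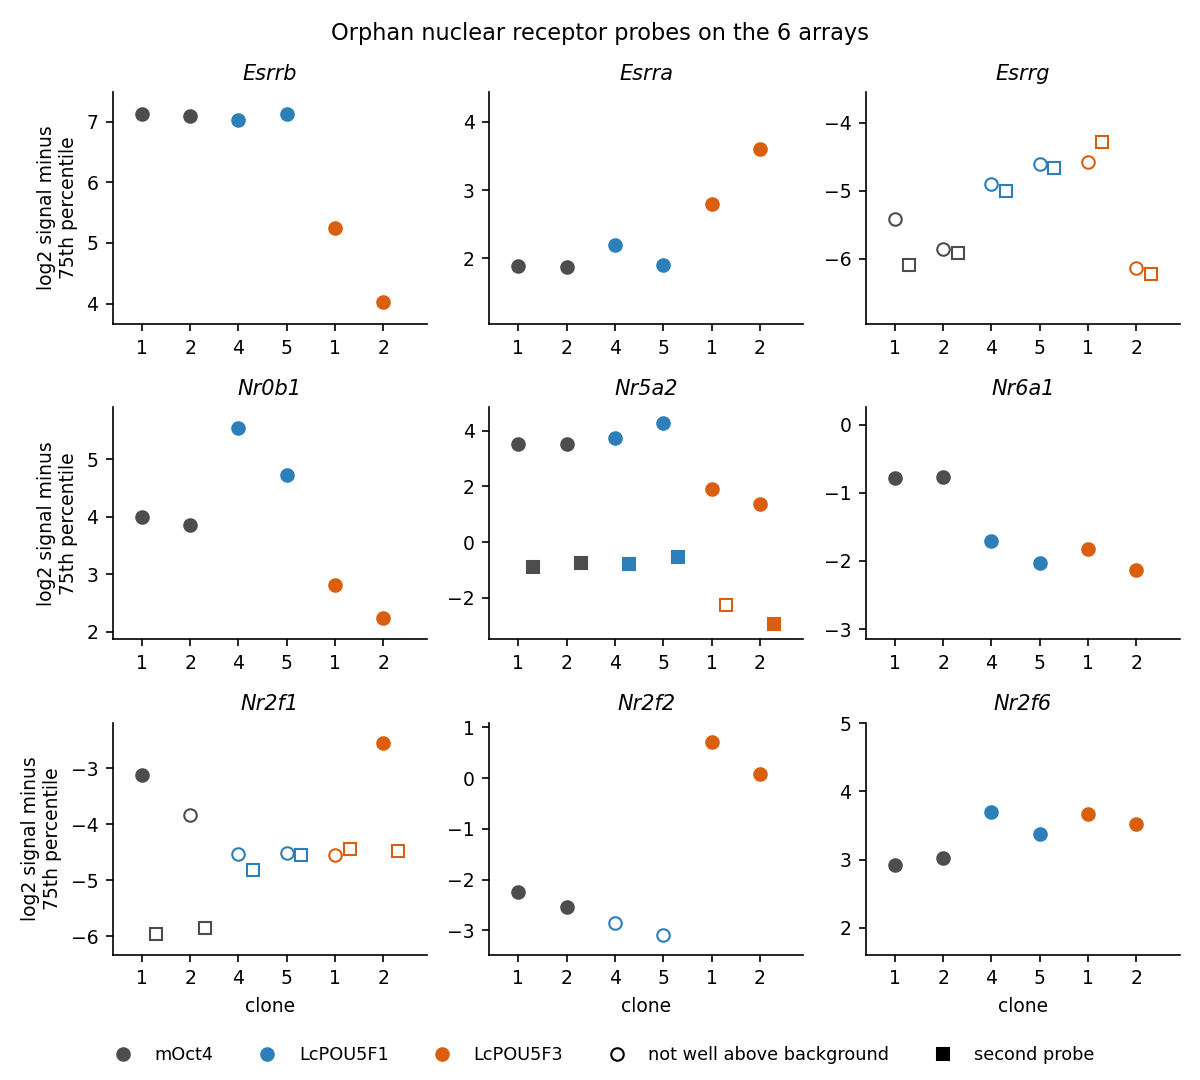
Level of each of the 12 probes on the 6 arrays, as log2 signal minus the array's 75th percentile (y axis, 1 scale per panel), by clone (x axis; grey mOct4, blue LcPOU5F1, orange LcPOU5F3). Circles are the first probe, squares a second probe, and open symbols signals that were not well above background. Esrrb sits near 7 in mOct4 and LcPOU5F1 and at 5.24 and 4.02 in LcPOU5F3, while Nr2f2 is high only in the 2 LcPOU5F3 clones.

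With coelacanth POU5F3 in place of mouse OCT4, the network genes Esrrb, Nr5a2 and Nr0b1 were lower, Nr6a1 was lower too, and Nr2f2 and Esrra were higher. Of the 7 genes tested, 4 fell (Esrrb, Nr5a2, Nr0b1 and Nr6a1), 2 rose (Nr2f2 and Esrra), and Nr2f6 did not pass limma's test at an adjusted p under 0.05. Among all 14595 genes, 11.8% were lower and 11.8% were higher, and the median change was -0.09. Since the members were chosen with earlier results of these data known, these shares are a description and no test of the set. Clones of LcPOU5F3 differed from each other more than those of the other groups. Between LcPOU5F3 clones the median gene had an SD of 0.23, beside 0.15 between LcPOU5F1 clones and 0.107 between mOct4 clones. Without either mOct4 clone, none of the 7 genes passed (35 genes of all passed without clone 1, and 41 without clone 2), with each change in the same direction. The gene lists given further on were also refitted without each clone, an alternative chosen after seeing the data. Calls over all genes moved widely between these fits too, so a list's count in them is not a trait of that list. In LcPOU5F3 against mOct4, none of the 7 related lists held a called gene without mOct4 clone 1 or 2, apart from 1 gene of the retinoic acid response without clone 1, and the marker lists held 2 called trophectoderm genes and no others.

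With coelacanth POU5F1, the levels of Esrrb and Nr5a2 stayed near or above those of mOct4, and Nr2f2 was not well above background. Against mOct4, 0 of the 7 passed limma's test, where 0.0343% of all genes (5) did. At an unadjusted p under 0.05 the number was 3 of 7 (Nr6a1, Nr0b1 and Nr2f6), where 15.5% of all genes passed. Against LcPOU5F3, 3 of the 7 were higher in LcPOU5F1 (Nr0b1, Esrrb and Nr5a2) and 1 was lower (Nr2f2). Of all genes, 10.5% were higher and 9.98% were lower, and the median of all was 0.21 (-0.20 when arrays were centred on their median instead). The split of all calls moved with the scaling. It was 1531 higher and 1456 lower here, 1176 and 1772 after quantile normalization, and 502 and 1852 after median centring. Against mOct4 it was 2 and 3, then 7 and 98, then 47 and 703. The 3 comparisons share arrays, so the values of a gene in them are not independent.

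Esrrb binds as a single molecule to an extended AGGTCA element and keeps the naive state going; it is also needed by trophoblast stem cells. The Esrrb probe read 7.12 and 7.10 in mOct4 (clones 1 and 2, in that order throughout), 7.04 and 7.14 in LcPOU5F1 (clones 4 and 5), and 5.24 and 4.02 in LcPOU5F3 (clones 1 and 2). The mOct4 and LcPOU5F1 clones overlapped, and both LcPOU5F3 clones lay below all 4 of them, 1.22 apart from each other. Esrrb was 5.58-fold lower in LcPOU5F3 than in mOct4 (log2 change -2.48 ± 0.40 SE, 95% interval -3.51 to -1.45, limma adjusted p = 0.017). The change was -3.09 without LcPOU5F3 clone 1 and -1.87 without clone 2. Between LcPOU5F1 and mOct4 the difference was -0.03 ± 0.40 (SE), with an interval of -1.06 to 1.00. That interval rests on a spread pooled over the 3 groups. Clones lay 1.22 apart in LcPOU5F3, 0.10 in LcPOU5F1 and 0.017 in mOct4, so its width comes mostly from a group outside this comparison. Esrrb was 5.48-fold higher in LcPOU5F1 than in LcPOU5F3 (adjusted p = 0.020 in limma), with a log2 change of 3.07 without LcPOU5F3 clone 1 and 1.84 without clone 2. That call was lost without either mOct4 clone (adjusted p = 0.071), without LcPOU5F1 clone 4 (0.091) and without LcPOU5F1 clone 5 (0.10).

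Esrra, the widely expressed family member that drives genes of mitochondrial respiration with the coactivator PGC-1, moved the other way. The probe read 1.88 and 1.87 in mOct4, 2.19 and 1.90 in LcPOU5F1, and 2.80 and 3.60 in LcPOU5F3. The 3 groups did not overlap, although LcPOU5F1 clone 5 lay just above the mOct4 clones. Esrra was 2.50-fold higher in LcPOU5F3 than in mOct4 (log2 change 1.32 ± 0.30 SE, limma adjusted p = 0.035). This call was lost without either mOct4 clone (adjusted p = 0.17 without clone 1 and 0.18 without clone 2) and without either LcPOU5F1 clone (0.068 for each). The difference between LcPOU5F1 and mOct4 was 0.16 ± 0.30 (SE; adjusted p = 0.80 in limma). Between LcPOU5F1 and LcPOU5F3 it was -1.16 ± 0.30 (SE), just outside the threshold (limma adjusted p = 0.052), and ran from -1.56 to -0.75 as clones were left out.

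Esrrg, the third of the subfamily and typical of heart, kidney and other oxidative tissues, had no signal well above background on any array with either probe. The first probe read -5.42 and -5.85 in mOct4, -4.91 and -4.61 in LcPOU5F1, and -4.59 and -6.13 in LcPOU5F3. The second probe read -6.09 and -5.92, -5.01 and -4.67, and -4.28 and -6.23. Such values have no order, since the lowest signal counted as well above background lay between -3.93 and -2.44 on the 6 arrays.

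Genes that the oestrogen-related receptors are known to drive were followed in a list of 24 metabolic targets, all tested. In LcPOU5F3 against mOct4, 5 were lower and 1 was higher, where 11.8% of all genes passed in each direction, with a median of -0.25 beside -0.09 for all genes. Cpt1b, which carries fatty acids into mitochondria, was 3.42-fold lower, with the signal well above background in 1 of the 2 LcPOU5F3 clones. Pdk4, an inhibitor of pyruvate dehydrogenase, was 2.01-fold lower, and Gabpa, a regulator of respiratory genes, 1.81-fold lower. Sdhb and Atp5b completed the lower genes, and Acadvl, an enzyme of fatty acid oxidation, was the gene that rose, 2.25-fold (these 3 were named after their values were seen). Between the coelacanth groups, 4 were higher in LcPOU5F1 and 0 lower, where 10.5% and 9.98% of all genes were, with a median of 0.35 beside 0.21 for all genes. Pdk4 was 2.38-fold, Gabpa 2.10-fold and Sdhb 1.79-fold higher in LcPOU5F1; Cpt1b was the other called gene, named after its value was seen. Against mOct4, 0 of the 24 passed in LcPOU5F1, and 0 had an unadjusted p under 0.05, beside 15.5% of all genes. The count in LcPOU5F3 against mOct4 fell to 1 without either LcPOU5F1 clone and to 1 without LcPOU5F3 clone 2. That between the coelacanth groups fell to 1 without either mOct4 clone or LcPOU5F1 clone 5, to 0 without LcPOU5F1 clone 4 and to 2 without LcPOU5F3 clone 2.

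Nr0b1 encodes a receptor-like protein without the DNA-binding zinc fingers; it binds OCT4 and NR5A2 and is itself an OCT4 target in stem cells. Its probe read 4.00 and 3.85 in mOct4, 5.54 and 4.72 in LcPOU5F1, and 2.80 and 2.23 in LcPOU5F3. No group overlapped another, with LcPOU5F1 highest and LcPOU5F3 lowest. The probe is printed 10 times on each array, and the SD over those spots was between 0.038 and 0.069, below the gaps of 0.14, 0.82 and 0.57 between clones of mOct4, LcPOU5F1 and LcPOU5F3. These repeat spots measure the array, not the clones.

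**Figure D2:**
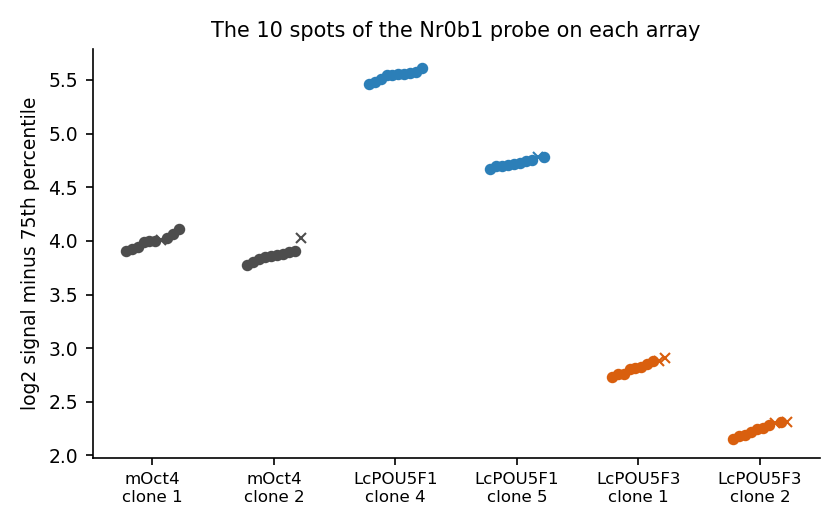
The 10 spots of the Nr0b1 probe on each array, as log2 signal minus the array's 75th percentile (y axis), sorted within each clone (x axis). Circles are spots used and crosses spots that the scanner software marked as outliers, which were left out. The spots of a clone span less than the gap to any other clone except between the mOct4 clones, whose spots overlap.

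Nr0b1 was 2.65-fold lower in LcPOU5F3 than in mOct4 (log2 change -1.41 ± 0.34 SE, interval -2.27 to -0.54, limma adjusted p = 0.041). This call was also lost without LcPOU5F3 clone 2 (adjusted p = 0.098). In LcPOU5F1 against mOct4 it differed by 1.21 ± 0.34 (SE), a 2.31-fold higher mean with an interval of 0.34 to 2.08 for the single gene. That did not pass over all genes (limma adjusted p = 0.24). Between the coelacanth proteins Nr0b1 was 6.13-fold higher in LcPOU5F1 than in LcPOU5F3 (2.62 ± 0.34 SE, limma adjusted p = 0.012). Without either mOct4 clone the adjusted p was 0.053.

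Nr5a2 binds regulatory DNA of Pou5f1 and Nanog and can stand in for OCT4 in reprogramming; in liver, gut and gonad it controls bile acid and steroid genes. Its brighter probe read 3.53 and 3.51 in mOct4, 3.74 and 4.28 in LcPOU5F1, and 1.90 and 1.36 in LcPOU5F3. Its dimmer probe read -0.90 and -0.74, -0.78 and -0.53, and -2.26 and -2.93, with LcPOU5F3 clone 1 not well above background. Both probes put the 2 LcPOU5F3 clones below the other 4, and LcPOU5F1 overlapped mOct4 on the dimmer probe only.

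Nr5a2 was 3.70-fold lower in LcPOU5F3 than in mOct4 (log2 change -1.89 ± 0.27 SE, limma adjusted p = 0.014). The dimmer probe gave 3.42-fold (-1.78 ± 0.27 SE, limma adjusted p over all kept probes = 0.023). LcPOU5F1 differed from mOct4 by 0.49 ± 0.27 (SE, interval -0.21 to 1.19) on the first probe and 0.17 ± 0.27 (SE) on the second, and neither passed. Nr5a2 was 5.19-fold higher in LcPOU5F1 than in LcPOU5F3 (limma adjusted p = 0.0098), and 3.85-fold by the dimmer probe (0.021). Without LcPOU5F1 clone 5 the adjusted p of the first probe was 0.054. Of 10 genes that NR5A proteins drive in liver and steroid-producing tissue, 5 were tested and 0 passed in any of the 3 comparisons, with 0 at an unadjusted p under 0.05. Of all 14595 genes, 3438 passed in LcPOU5F3 against mOct4, 5 in LcPOU5F1 against mOct4 and 2987 between the coelacanth groups. At an unadjusted p under 0.05 the numbers were 5884, 2265 and 5760. With so few genes passing in LcPOU5F1 against mOct4, a count of 0 there says little. Star, Nr0b2 and Amh were among the 5, and were well above background on both arrays of mOct4 only, so their values in the coelacanth groups lie near the floor and say little. Without LcPOU5F3 clone 1 or 2, 1 gene passed in LcPOU5F3 against mOct4, and 1 between the coelacanth groups without LcPOU5F3 clone 1. The medians of the 5 were -0.10 in LcPOU5F3 against mOct4 and 0.32 in LcPOU5F1 against mOct4, beside -0.09 and 0.10 for all genes.

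Nr6a1, the germ cell nuclear factor that represses Pou5f1 and Nanog in differentiating cells and recruits MBD and DNMT proteins to Pou5f1, was lower with LcPOU5F3. Its probe read -0.78 and -0.77 in mOct4, -1.70 and -2.03 in LcPOU5F1, and -1.82 and -2.13 in LcPOU5F3. The mOct4 clones lay above the other 4, which overlapped each other. Nr6a1 was 2.30-fold lower in LcPOU5F3 than in mOct4 (log2 change -1.20 ± 0.19 SE, limma adjusted p = 0.017).

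In LcPOU5F1 against mOct4, Nr6a1 differed by -1.09 ± 0.19 (SE, interval -1.59 to -0.60), a 2.14-fold lower mean. This missed the threshold over all genes (limma adjusted p = 0.14). It passed without either LcPOU5F3 clone (adjusted p = 0.048 for each), where the spread comes from the mOct4 and LcPOU5F1 clones alone, and after centring on the array median (0.027). The coelacanth groups differed by 0.11 ± 0.19 (SE), with an interval of -0.39 to 0.60. This sign turned under quantile normalization (-0.16) and median centring (-0.30).

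The factors known to work with NR6A1 in silencing Pou5f1 were followed in a list of 10, all tested. In LcPOU5F3 against mOct4, 1 was higher and 1 lower, beside 11.8% of all genes in each direction. Mbd2, a reader of methylated DNA, was 2.42-fold higher and Uhrf1, which brings DNMT1 to replicated DNA, 1.66-fold lower. Between the coelacanth groups, 2 were higher in LcPOU5F1 and 3 lower, beside 10.5% and 9.98% of all genes. Uhrf1 was 1.82-fold and Dnmt1 1.52-fold higher in LcPOU5F1, and Mbd2 was 2.10-fold, Dnmt3a 2.29-fold and Dnmt3b 1.88-fold lower (Dnmt3a and Dnmt3b were named after their values were seen). Against mOct4, 0 of the 10 passed in LcPOU5F1, and 2 had an unadjusted p under 0.05, beside 15.5% of all genes. The medians lay between 0.02 and 0.10, beside -0.09, 0.10 and 0.21 for all genes. The calls against mOct4 fell to 1 without either LcPOU5F1 clone and to 0 without LcPOU5F3 clone 2. Those between the coelacanth groups fell to 0 without any 1 of the clones other than LcPOU5F3 clone 1.

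Nr2f2 (COUP-TFII), which controls mesenchyme, vein and placental development and is switched on as stem cells differentiate, was higher with LcPOU5F3 than in both other groups. The signal was -2.24 and -2.53 in mOct4, -2.86 and -3.09 in LcPOU5F1, where neither array was well above background, and 0.70 and 0.09 in LcPOU5F3. Both LcPOU5F3 clones lay far above the other 4. Nr2f2 was 6.88-fold higher in LcPOU5F3 than in mOct4 (log2 change 2.78 ± 0.26 SE, interval 2.12 to 3.45, limma adjusted p = 0.0065). With normexp background correction the change was 1.72 and still passed (limma adjusted p = 0.0030). In LcPOU5F1 it was at least 8.26-fold lower than in LcPOU5F3 (limma adjusted p = 0.0055) and at least 1.20-fold lower than in mOct4 (limma adjusted p = 0.36, not passed). Each bound sets the brighter mean against, per dim array, the higher of the probe's own signal and the array's lowest signal well above background, and holds for that floor only. With 1 common floor for all arrays the log2 differences of LcPOU5F1 were -2.84 from LcPOU5F3 and -0.10 from mOct4, and with normexp they were -1.84 and -0.11. The change between LcPOU5F1 and LcPOU5F3 passed under all 16 alternatives in which Nr2f2 could be fitted.

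Nr2f1 (COUP-TFI), a regulator of neural patterning, was not tested. Its first probe was well above background on 2 arrays of different groups, mOct4 clone 1 (-3.12) and LcPOU5F3 clone 2 (-2.55). The other 4 arrays read -3.83, -4.53, -4.52 and -4.55, in the order mOct4 clone 2, LcPOU5F1 clones 4 and 5, and LcPOU5F3 clone 1. Its second probe was well above background on none. The lowest signal well above background on LcPOU5F3 clone 1 was -2.46, above the signal of clone 2, so the 2 clones cannot be ordered on Nr2f1.

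Nr2f6 (EAR2), a repressor best known from lymphocytes and blood progenitors, was the least variable of the 7. The signal was 2.92 and 3.02 in mOct4, 3.69 and 3.38 in LcPOU5F1, and 3.66 and 3.52 in LcPOU5F3. Both coelacanth groups lay above mOct4 and overlapped each other. The difference from mOct4 was 0.62 ± 0.17 (SE, interval 0.18 to 1.06) in LcPOU5F3 (limma adjusted p = 0.057) and 0.56 ± 0.17 (SE, interval 0.12 to 1.00) in LcPOU5F1 (0.26), so neither passed over all genes. The coelacanth groups differed by -0.06 ± 0.17 (SE, interval -0.50 to 0.38).

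COUP-TFs are known to be induced by retinoic acid. Of 15 genes of the retinoic acid response 12 were tested, and in LcPOU5F3 against mOct4, 3 were higher and 2 lower, beside 11.8% of all genes in each direction. Meis1 and Meis2, homeobox genes, were 12.1-fold and 19.2-fold higher, the latter with 1 of 2 mOct4 arrays well above background. Meis2 passed the filter on dim probes only through LcPOU5F3, the group where it was high. Stra8, the meiotic gatekeeper, was 131-fold lower by the fitted change. Its signal was well above background in 1 of 2 LcPOU5F3 clones and 1 of 2 LcPOU5F1 clones, so it passed the filter only through mOct4. With LcPOU5F1 against mOct4 the mean of Meis1 was 9.59-fold higher (limma adjusted p = 0.10) and that of Stra8 33.1-fold lower (0.12), neither passing over all genes. Meis1 differed 1.26-fold between the coelacanth groups (limma adjusted p = 0.50) and Stra8 3.96-fold (0.12). The fold sizes of Stra8 rest partly on signals that were not well above background. The remaining calls, named after their values were seen, were Dhrs3 (8.44-fold higher), which reduces retinal, and Crabp1 (7.41-fold lower), which binds retinoic acid in the cytoplasm. Set against LcPOU5F3, Cyp26a1, which degrades retinoic acid, was at least 2.27-fold lower in the LcPOU5F1 clones and Meis2 at least 9.30-fold lower. In the list 0 genes were higher, where 10.5% of all genes were higher and 9.98% lower. Against mOct4, 0 of the 12 passed in LcPOU5F1, and 5 had an unadjusted p under 0.05, beside 15.5% of all genes. The median there was -0.95, beside 0.10 for all genes. More of the 12 passed there without either LcPOU5F3 clone, as did more of all genes. Between the coelacanth groups, where 3 genes passed, fewer did without either LcPOU5F1 clone and more without LcPOU5F3 clone 1.

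**Figure D3:**
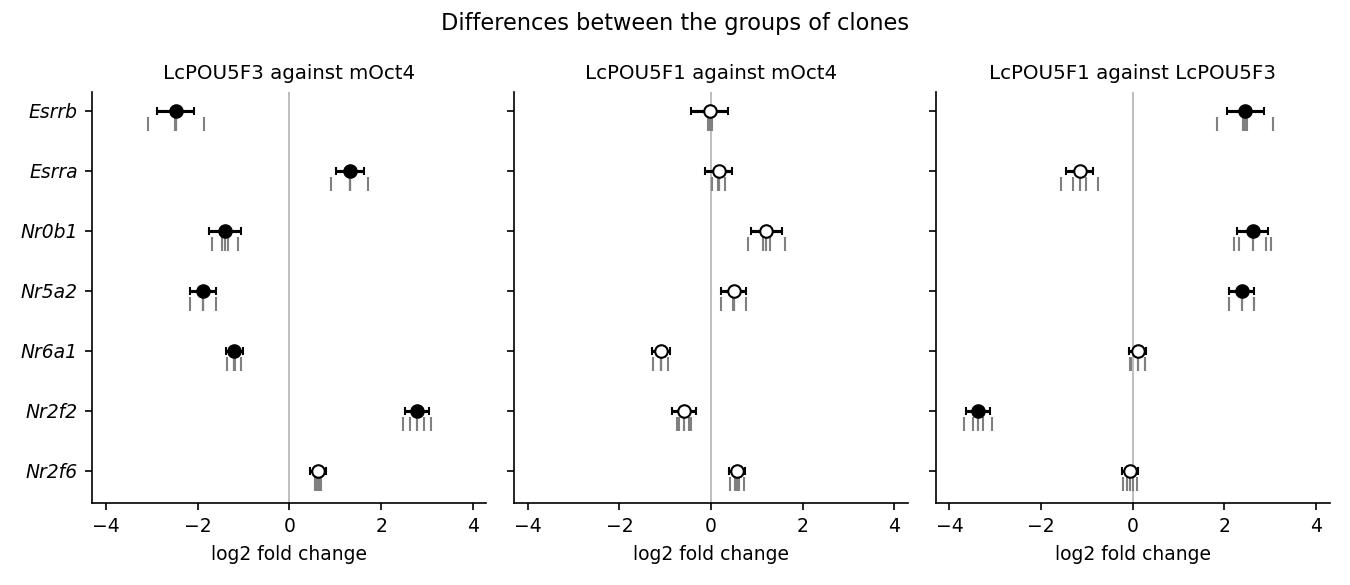
Log2 fold change (x axis) of the 7 tested genes (y axis) in the 3 comparisons, with bars of 1 SE; filled circles passed at an adjusted p under 0.05 and open circles did not. Short grey lines mark the change with each clone left out in turn. Esrrb, Nr5a2 and Nr0b1 lie left of 0 in LcPOU5F3 against mOct4 and right of 0 in LcPOU5F1 against LcPOU5F3, and Nr2f2 does the reverse.

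The members' profiles over the 6 arrays were compared by distance. After each gene was centred on its own mean, Esrrb and Nr5a2 were the nearest pair of members, at a root mean square distance of 0.35 log2 units. Nr0b1 lay 0.49 from Nr5a2 and 0.64 from Esrrb. Esrra and Nr2f6 lay 0.53 apart, closer than that last pair. Esrrb and Nr2f2 were the farthest pair, at 2.63. The SD over the 6 arrays was 1.63 for Nr2f2, above that of 97.1% of the 14595 genes, and 1.33 for Esrrb, 1.21 for Nr0b1 and 1.15 for Nr5a2, above 94.9%, 93.6% and 92.7%. It was 0.33 for Nr2f6, below the median gene's 0.38. The clones within LcPOU5F3 did not move members alike. Clone 2 was farther than clone 1 from the mOct4 mean for 5 of the 7 genes (Esrra, Esrrb, Nr0b1, Nr5a2 and Nr6a1), and clone 1 was farther for Nr2f2 and Nr2f6. Over all tested genes, too, clone 2 correlated less with the mOct4 arrays (r = 0.90 with each) than clone 1 did (0.93 with each). The share of all genes for which clone 2 was farther was not counted. Clone 2 also had the lower summed level of stem cell markers, a list that holds Esrrb.

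The genes with the most similar profile were searched among all tested genes. For Esrrb they were Slc29a1 (distance 0.10), a nucleoside transporter, Gli2, a Hedgehog effector, and Acacb, an acetyl-CoA carboxylase. For Nr5a2 they were Kcnh2 (0.14), a potassium channel, N4bp3 and Hal. For Nr0b1 they were Klk11 (0.058), a kallikrein protease, Pax6, a neural and eye regulator, and Socs2, a feedback inhibitor of cytokine signalling. Klk11 followed Nr0b1 nearly point for point (r = 0.999 over 6 arrays, without a test). For Nr2f2 the nearest were Eps8l2 (0.28), Pax3 and 2200002D01Rik, and for Esrra Atn1 (0.078), Hoxa11os and Sbno2. For Nr6a1 they were 4930432K21Rik (0.081), Ushbp1 and Hba-a2, and for Nr2f6 Disp1 (0.051), Pdzd11 and Ccnh. With 6 arrays in 3 groups, many genes share a profile, and closeness says nothing of shared control.

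The partners of these receptors in the naive circuit were followed in a list of 15, all tested. In LcPOU5F3 against mOct4, 9 were lower and 1 higher, where 11.8% of all genes passed in each direction, with a median of -1.68 beside -0.09 for all genes. Sox2, the usual partner of OCT4 on DNA, was 3.21-fold lower and Tcl1, a coactivator of AKT, 71.7-fold lower. Dppa3, a maternal factor that shields methylation marks, was the gene that rose, 7.61-fold, with 1 of 2 mOct4 arrays well above background. Dppa3 passed the filter on dim probes only through LcPOU5F3, the group where it was high. Set against LcPOU5F3, the LcPOU5F1 clones had 8 higher and 1 lower, where 10.5% and 9.98% of all genes were, with a median of 1.75 beside 0.21. Sox2 was 3.88-fold and Zfp42 5.74-fold higher in LcPOU5F1, and Dppa3 at least 4.91-fold lower. Against mOct4, 0 of the 15 passed in LcPOU5F1 (3 had an unadjusted p under 0.05, beside 15.5% of all genes) and the median was -0.02. Several of these genes are in the stem cell marker list above, so the counts restate part of it. Without either LcPOU5F1 clone the calls were 5 lower and 1 higher against mOct4. Between the coelacanth groups 2 genes passed without either mOct4 clone and without either LcPOU5F1 clone.

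Of the 40 other nuclear receptors 27 were tested, and in LcPOU5F3 against mOct4, 5 were higher and 0 lower, beside 11.8% of all genes in each direction, with a median of 0.06. More of the 27 passed without LcPOU5F3 clone 1 and fewer without clone 2, in fits where calls over all genes moved too. Nr4a2, an orphan receptor of the immediate early class, was 5.55-fold higher, Nr3c1, the glucocorticoid receptor, 4.42-fold, and Thra, a thyroid hormone receptor, 2.00-fold. The others, named after their values were seen, were Pparg (3.39-fold), the fat cell and trophoblast receptor, and Nr2c1 (2.68-fold). Between the coelacanth groups, 1 of the 27 was higher in LcPOU5F1 and 2 were lower, where 10.5% and 9.98% of all genes were. Rara, a retinoic acid receptor, was 2.53-fold higher in LcPOU5F1, and Nr4a2 and Nr3c1 were 3.40-fold and 2.34-fold lower. Fewer of the 27 passed without any 1 of the clones other than LcPOU5F3 clone 1, and more passed without that clone. Calls over all genes moved between these fits too. In LcPOU5F1 against mOct4, 0 of the 27 passed, and 4 had an unadjusted p under 0.05, beside 15.5% of all genes. Of 21 coregulators 19 were tested, and 3 rose and 1 fell in LcPOU5F3 against mOct4, beside the same 11.8% each way. The 4 calls became 1 without either LcPOU5F1 clone and 2 without LcPOU5F3 clone 2. Nrip1, a corepressor of many receptors, was 2.66-fold higher, Ncoa2, a steroid receptor coactivator, 1.65-fold higher, and Pprc1, a PGC-1 relative, 1.76-fold lower; Ncoa1, named after its value was seen, was 1.74-fold higher. Between the coelacanth groups, 2 coregulators were higher in LcPOU5F1 and 2 lower, a count that fell to 0 without either mOct4 or either LcPOU5F1 clone and to 1 without LcPOU5F3 clone 2. Of all genes, 10.5% were higher and 9.98% lower there. Ncor1, the nuclear receptor corepressor, was 1.62-fold higher, Ncoa1 2.24-fold lower and Nrip1 2.11-fold lower. Pprc1, named after its value was seen, was 1.59-fold higher. In LcPOU5F1 against mOct4, 0 of the 19 passed, and 1 had an unadjusted p under 0.05, beside 15.5% of all genes.

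**Figure D4:**
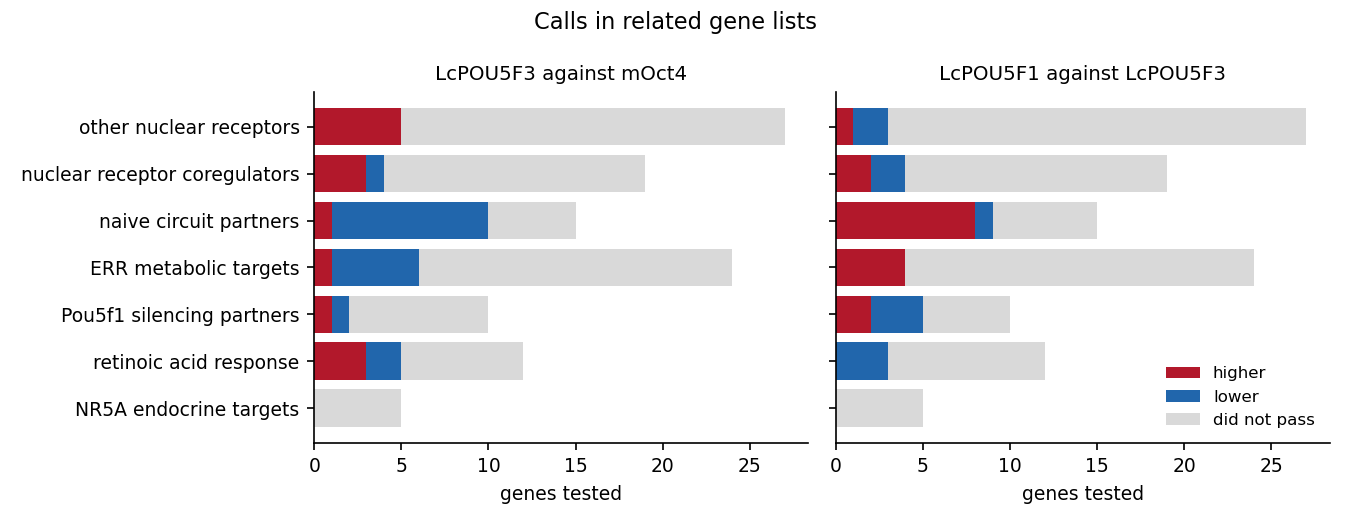
Number of genes tested (x axis, full bar) and called higher (red) or lower (blue) at an adjusted p under 0.05 in 7 lists of genes related to the receptors (y axis), for LcPOU5F3 against mOct4 (left) and LcPOU5F1 against LcPOU5F3 (right). The naive circuit partners hold 9 lower and 1 higher of 15 on the left, and the other nuclear receptors 5 higher and 0 lower of 27; LcPOU5F1 against mOct4 is not drawn because no gene of the 7 lists passed there.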

How the data were processed

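RNA of 6 clonal lines was hybridised to 1-colour Agilent arrays, whose design names the build mm9. Per the file headers, the authors read each spot's intensity with Feature Extraction 11.0.1.1 on a linear scale, with background subtracted and no scaling across arrays. Values in the deposited series matrix are these intensities, rounded. Positions of probes were not used.

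Levels are log2 of the processed intensity less the array's own 75th percentile of it. Outlier spots were left out and spots of a probe averaged. Transcripts were named through RefSeq (GRCm38.p6), which named 27656 probes. A probe was kept if well above background on both arrays of a group, and the brightest kept probe stood for its gene. Groups were compared with limma 3.58.1 in R 4.3.3 on all 6 arrays (3 residual degrees of freedom), with Benjamini-Hochberg adjustment over 14595 genes, after a test on simulated data. Tables were made with Python 3.11.15 and pandas 2.3.3.

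Alternatives were normexp (offset 50), quantile and median scaling, other filters, every kept probe, 4 arrays only, array weights, the series matrix, a common floor, slide and clone number as blocks, and each clone left out (for the gene lists this was chosen after seeing the data). The number of arrays limits the precision. All members were reported; from each list up to 3 called genes with the smallest p were named per comparison, and 3 nearest profiles per member. 1 of the genes so named is not reported here. Members and lists were chosen with earlier results of these data known.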

Additional observations from a re-analysis of the deposited data

How the results depend on the processing

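In LcPOU5F3 against mOct4, all 7 receptors kept their direction in every alternative run, but the calls did not hold under all. With 3438 genes and 6 receptors called in the reported fit, 1541 genes passed without a filter on dim probes, 2194 with only the 4 arrays compared, and 41 genes and 0 receptors with slide as a block, where slide 2 holds mOct4 clone 2 alone. With the clone number as a replicate block, 0 genes and 0 receptors passed (the receptors' adjusted p lay at 0.057 or above). Clone numbers of different constructs share only a number, and the deviations of same-numbered clones correlated at -0.097. With each clone left out, 35 to 5109 genes and 0 to 6 receptors passed. A lone clone is then assumed to vary like the other groups. In LcPOU5F1 against mOct4 (5 genes and 0 receptors called), 0 genes passed over every kept probe, without a filter, with the filter on all 6 arrays and with slide as a block, 1 with a common floor, 13 with normexp, 105 with quantile normalization, 750 with median centring, 504 with array weights and 537 with 4 arrays. Nr6a1 was the 1 receptor that passed with median centring, array weights and 4 arrays. With clones left out, 0 to 537 genes and 0 to 1 receptors passed. In LcPOU5F1 against LcPOU5F3 (2987 genes and 4 receptors), 959 genes passed without a filter, 1646 with array weights, and 498 genes and 2 receptors both with 4 arrays and with slide as a block. With clones left out, 487 to 5920 genes and 2 to 5 receptors passed. Signs turned only in small differences. Esrra in LcPOU5F1 against mOct4 became -0.21 with median centring, and Esrrb there ran from -0.077 to 0.024 as clones were left out, above 0 without LcPOU5F1 clone 4. In LcPOU5F1 against LcPOU5F3, Nr6a1 became -0.16 with quantile normalization and -0.30 with median centring, and ran from -0.060 to 0.27 as clones were left out, below 0 without LcPOU5F1 clone 4 or LcPOU5F3 clone 2. Nr2f6 there ran from -0.21 to 0.096, above 0 without LcPOU5F1 clone 5 or LcPOU5F3 clone 1. The cause of these shifts was not tested. In LcPOU5F3 against mOct4, Esrra and Nr0b1 lost their calls over every kept probe (limma adjusted p = 0.051 and 0.059), without a filter and with a common floor, and Nr6a1 with median centring (0.057). Esrra also lost its call with only the 4 arrays compared (0.068), and Nr0b1 with array weights (0.051). Of 18 alternatives, Esrra kept its call in 8 and Nr0b1 in 9, beside 14 for Esrrb, 14 for Nr5a2 and 13 for Nr6a1. Nr2f6 passed with the filter on all 6 arrays (0.039), the series matrix (0.046) and the common floor (0.044). Nr2f2 has no value under the filter on all 6 arrays. Signal over background limits Esrrg, Nr2f1, and Nr2f2 in LcPOU5F1.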
